A study of Mus musculus with 12 samples.

Results

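Cells of old mice described as haematopoietic stem and progenitor cells were compared after culture with uridine and without any culture, over all genes of a deposited count table. The members were chosen by their labels: the 3 libraries of aged cells cultured with uridine and the 3 libraries of aged cells taken without culture, 6 of the 12 libraries of the series. Of 54532 Ensembl genes in the table, 16675 passed a filter on low counts and were tested. All 6 libraries were of bone marrow cells labelled aged and wild type, with no transgene, deletion or other agent named. The genotype labels run from c57bl/7 WT to c57bl/9 WT in the uridine libraries and from c57bl/13 WT to c57bl/15 WT in the uncultured aged libraries, so the strain is uncertain. No source used here gives the age in months, the sort markers, the length of culture or the amount of uridine. The other 6 libraries, 3 of aged cells cultured with vehicle and 3 of uncultured young cells, entered the fit, and their values are given beside those of the 6 compared. The libraries of a group are told apart by a number alone, and whether they came from different mice or dishes is not said. The p-values therefore measure only the spread between these samples, which may be technical.

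Stem and progenitor cells of the marrow give rise to all blood lineages, and with age the stem cells shift towards platelet and myeloid output and away from lymphoid output. Uridine is a pyrimidine nucleoside that enters cells through nucleoside transporters and is phosphorylated to UMP, a precursor of RNA, of DNA and of the UDP-sugars used in glycosylation. Moving marrow cells from the animal to medium with growth factors is known to start division and lineage differentiation. Between the 2 groups compared here, culture and uridine changed together and cannot be told apart, so the median of vehicle culture against uncultured cells stands beside that of each gene list described by a median.

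Library totals ran from 16785065 to 19025802 counts over the 12 libraries and from 17203715 to 19025802 over the 6 compared. Genes of the label were present without culture: Kit, the stem cell factor receptor, was at 201 ± 3.3 CPM, the surface marker Cd34 at 201 ± 8.07 CPM and Ly6a, which encodes Sca-1, at 247 ± 4.8 CPM. Genes of the B lineage were present too. In the uncultured aged libraries the summed level was 3724 to 3858 CPM for the mature B cell list and 6323 to 6404 CPM for the plasma cell list. What share of the cells were progenitors is not known. Ly6a was far lower in young uncultured cells and higher with vehicle, as given below, so its level alone does not mark progenitors. Levels are in CPM, that is, counts corrected for library size by the TMM method but not for gene length. They are given for each library or as a mean ± SD (n = 3). Immunoglobulin genes and Jchain took 21.8% ± 0.171 of the counts in the uncultured aged libraries (n = 3), 0.606% ± 0.00745 with uridine (n = 3), 0.923% with vehicle and 0.543% in young cells. In the exact permutation test, two-sided, the uridine and uncultured aged libraries gave p = 0.1, the smallest that 3 against 3 can give. In bulk libraries, fewer cells of a type and less RNA per cell cannot be told apart.

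The uridine libraries stood apart from the vehicle libraries in 1 way that bears on every result below. For 38 genes whose young level was 10 times or more that of both the vehicle and the uncultured aged libraries, the uridine level lay at a like point between vehicle and young. With the vehicle level as 0 and the young level as 1, its median was 0.324, with a range of 0.184 to 0.474, and 36 of the 38 genes were within 0.1 of the median. By library, the median was 0.336, 0.321 and 0.331. Over 11853 genes with at least 5 CPM in some group, 95.4% had a uridine mean within 1.25-fold of 0.324 times the young mean plus 0.676 times the vehicle mean. The share within 1.25-fold of the vehicle mean alone was 75.5%, of the young mean alone 63.0% and of the uncultured aged mean 40.7%. The source of this pattern was not tested. The median of each gene list is therefore given also after 0.324 of the young profile was subtracted from the counts of each uridine library, called the subtracted value. For genes near the weighted sum, subtraction leaves mainly the vehicle profile, so the subtracted value is no check separate from the vehicle value. Its calls come from altered counts, rounded and cut at 0, so they are a description and their p-values are not valid tests. In the subtracted counts 33.8% of the 16638 genes tested were higher and 34.3% were lower.

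**Figure D1:**
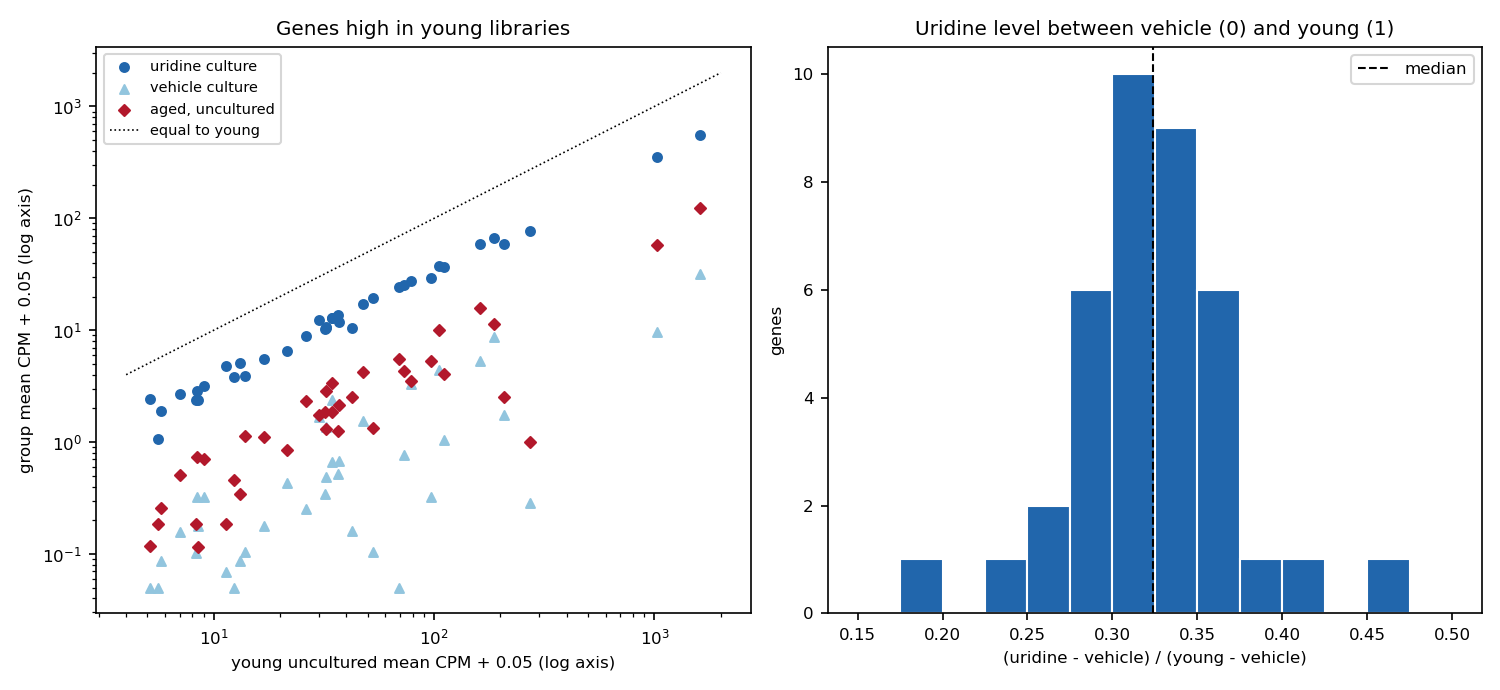
The left panel plots, for the 38 genes marked by young cells, the mean CPM + 0.05 in 3 groups (y axis, log: blue circles uridine, light triangles vehicle, red diamonds aged uncultured) against that in young uncultured cells (x axis, log), with the dotted line at equality. The right panel counts the genes by the position of the uridine level between vehicle (0) and young (1): the values gather near the median of 0.324, and 36 of 38 lie within 0.1 of it.

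Most genes tested differed between the libraries cultured with uridine and the uncultured aged libraries. Of the 16675 genes tested, 5969 (35.8%) were higher and 5346 (32.1%) were lower than in uncultured aged cells at an adjusted p under 0.05 (edgeR's quasi-likelihood test, Benjamini-Hochberg over all genes tested, as for every adjusted p here), 67.9% in all. At a change of 2-fold or more, 1996 (12.0%) were higher and 2178 (13.1%) were lower. The 3 uridine libraries did not overlap the 3 uncultured libraries for 11555 genes (69.3%), in either direction. The median log2 fold change over all genes tested was 0.03, and each list below is read against this median and the shares above. Where 3 list medians stand together, the first is uridine culture against uncultured, the second vehicle culture against uncultured and the third the subtracted value. Log2 fold changes are uridine over uncultured. SE is the absolute log2 fold change divided by the square root of the test's F statistic, a back-calculated error. For genes with few counts in a group it may be too small.

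**Figure D2:**
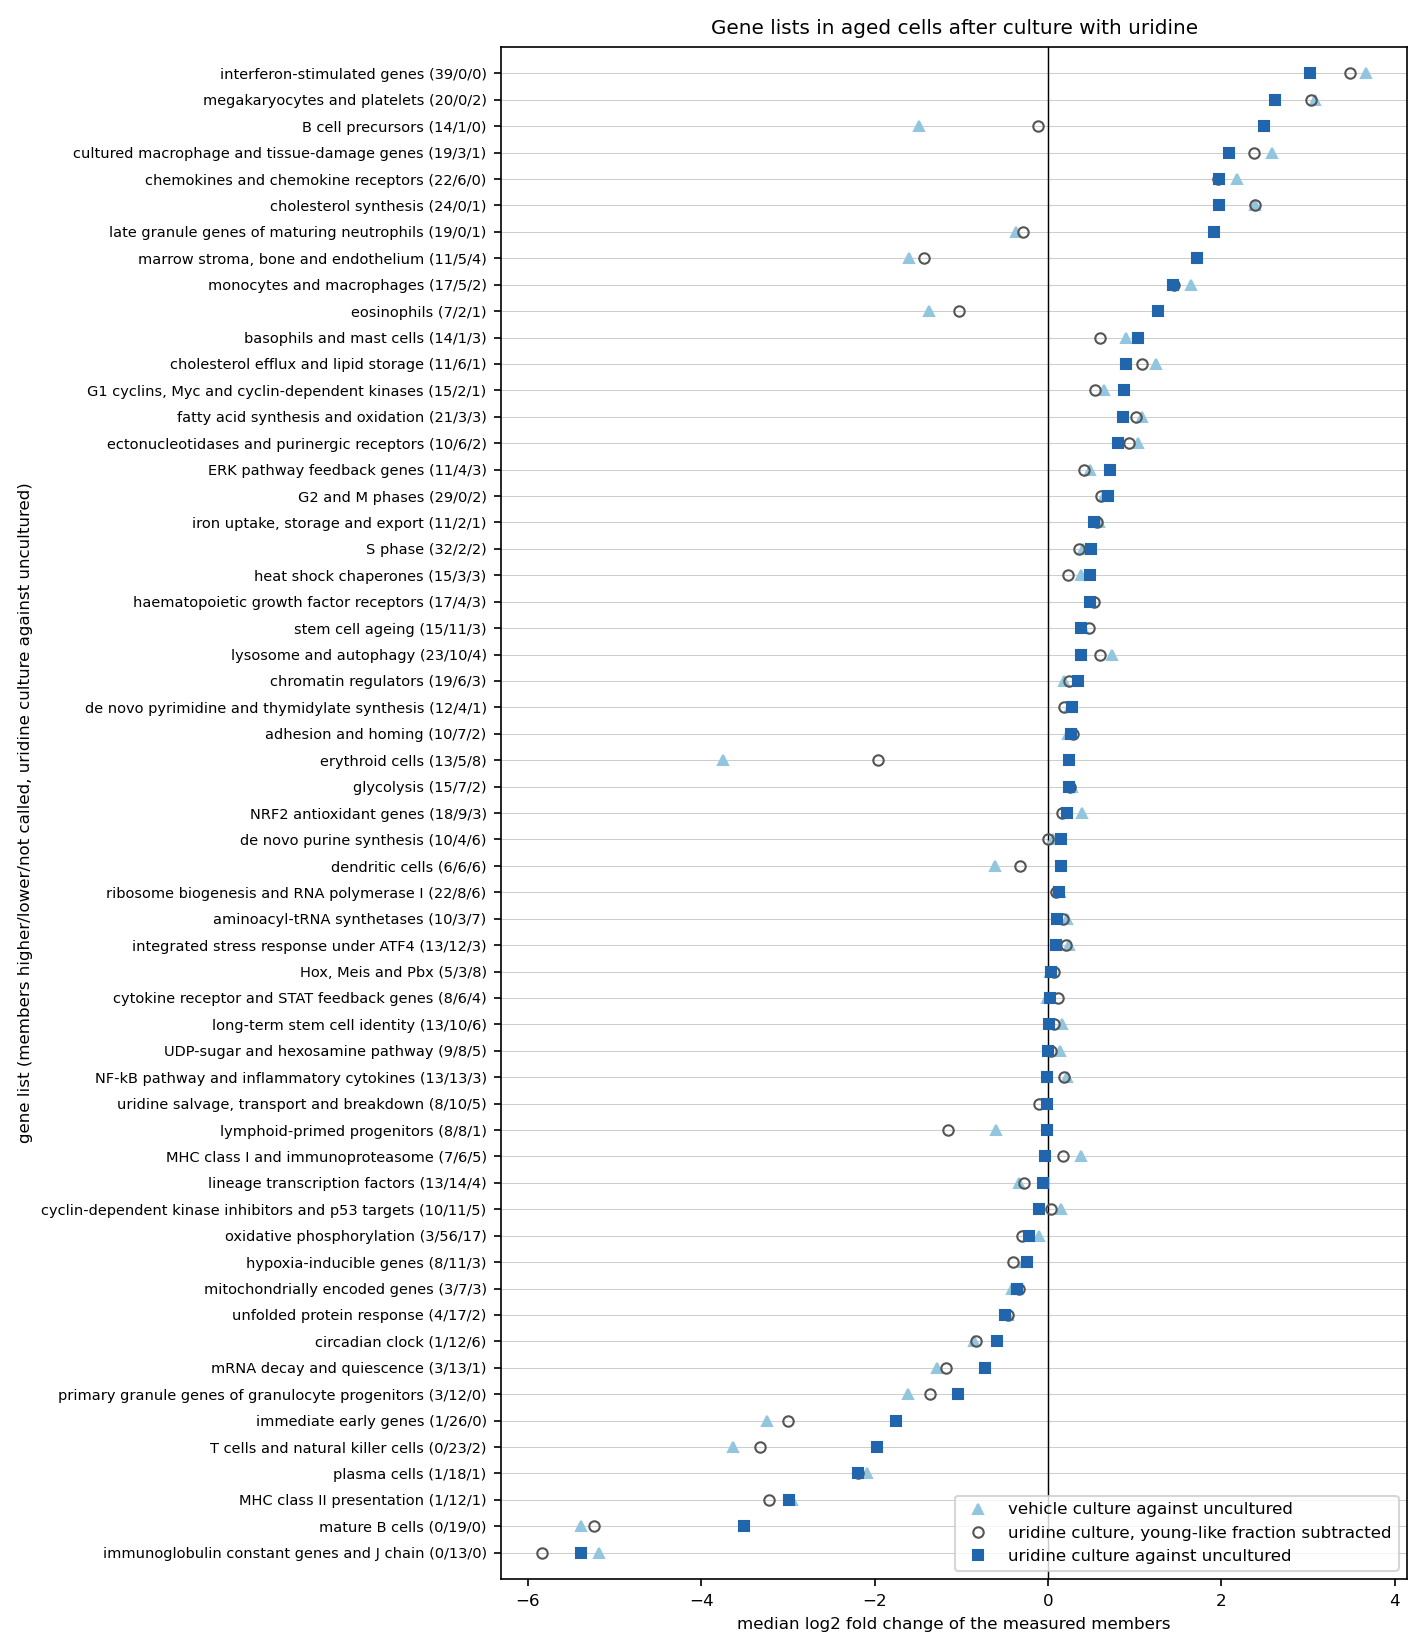
Median log2 fold change of the measured members (x axis) for 57 gene lists (y axis, with the members higher, lower and not called): blue squares are uridine culture against uncultured aged cells, open circles the same after the young-like fraction was subtracted, and light triangles vehicle culture against uncultured. Interferon-stimulated and megakaryocyte genes stand at the upper end, with medians of 3.02 and 2.62, and immunoglobulin genes at the lower end, with a median of -5.39.

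Genes induced by interferon, the antiviral cytokine, were higher without exception among those listed. All 39 measured members rose, with a median log2 fold change of 3.02, and the subtracted values gave 39 of 39 higher at a median of 3.48. In the vehicle cultures the median was 3.66. Some of the members with a match to the core letters of the interferon-stimulated response element are shown here with that stretch of their promoters. The list was chosen for induction by interferon, so a high share of matches may come from that choice. The letters searched were GAAANNGAAA on both strands, with N any base, in the 250 bases before RefSeq start sites of the GRCm38.p6 build. A window was at hand for 28 of the 39 genes, and 16 of those held a match (57.1%), against 381 of 11146 tested genes with a window (3.42%) and 3.46% of all 27025 genes with a window. Matches can overlap each other, and a match in these letters is a description, not a site shown to act. In the lines that follow, given 5′ to 3′ on the strand of the gene, capitals mark the matches, with up to 20 bases on each side.
Ifit1 (chr19:34640765-34640833, plus strand): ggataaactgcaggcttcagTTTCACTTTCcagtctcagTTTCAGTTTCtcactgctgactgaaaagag
Trim30a (chr7:104465200-104465249, minus strand): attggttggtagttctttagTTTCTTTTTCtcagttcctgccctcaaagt
Rsad2 (chr12:26456543-26456592, minus strand): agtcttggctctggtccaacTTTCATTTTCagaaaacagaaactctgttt
Ifit3 (chr19:34583353-34583436, plus strand): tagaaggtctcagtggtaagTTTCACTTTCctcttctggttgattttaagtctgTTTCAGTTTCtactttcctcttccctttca
Bst2 (chr8:71537567-71537622, minus strand): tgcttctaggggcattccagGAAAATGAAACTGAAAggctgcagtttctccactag
Cxcl10 (chr5:92349073-92349122, minus strand): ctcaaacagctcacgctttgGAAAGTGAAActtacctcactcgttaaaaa

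Ifit1, an RNA-binding inhibitor of viral translation, stood at 1.07, 0.974 and 1.38 CPM in the 3 uncultured libraries and at 119, 108 and 113 CPM in the 3 uridine libraries (log2 fold change 6.63, SE 0.10, adjusted p = 2.5e-35). Its neighbour Ifit3 stood at 0.466, 1.67 and 0.827 CPM before and 70.8, 71.7 and 74.9 CPM after culture (log2 fold change 6.20, SE 0.13, adjusted p = 1.6e-31). Both genes were close to the limit of detection without culture and the groups were far apart. Rsad2, which encodes the antiviral enzyme viperin, read 4.73, 4.52 and 2.76 CPM uncultured and 207, 203 and 208 CPM with uridine (log2 fold change 5.68, SE 0.07, adjusted p = 3.5e-38). Usp18, which removes ISG15 from proteins and dampens the receptor, read 3.73, 1.39 and 2.14 CPM and 116, 112 and 107 CPM (log2 fold change 5.52, SE 0.10, adjusted p = 7.9e-33). Irf7, the transcription factor that amplifies interferon production, went from 20.4, 23.5 and 25.1 CPM to 333, 327 and 328 CPM (log2 fold change 3.84, SE 0.05, adjusted p = 2.2e-38). For these 5 genes every uridine library was above every uncultured library, where 69.3% of all genes tested had no overlap in either direction. Genes were named partly for the size of their change, so this is no separate support.

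Other members of the group are given more briefly. Oasl2, of the oligoadenylate synthetase family, had a log2 fold change of 4.82, Parp14 of 2.91 and the E3 ligase gene Trim30a of 2.45. Bst2, which tethers virus particles to the cell surface, read 101, 87.6 and 100.4 CPM uncultured and 304, 304 and 301 CPM with uridine, a log2 fold change of 1.65. Ifit3b is a near copy of Ifit3, so its reads are uncertain: it had 2 counts over the 3 uncultured libraries and 825 over the 3 uridine libraries, a ratio of 302.1 with a 95% interval of 83.4 to 2498 for counting error only. The chemokine gene Cxcl10 rose from 18.6, 18.7 and 17.6 CPM to 130.3, 125 and 129 CPM (log2 fold change 2.81). The transducer Stat2 rose by 2.29 on the log2 scale, and Stat3, which is not on the list, by 0.31. In the vehicle cultures Ifit1 was at 185 CPM, Rsad2 at 344 CPM and Irf7 at 558 CPM, each above its uridine level, and in young uncultured cells they were at 3.37, 13.6 and 23.9 CPM.

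Genes of inflammation and host defence among the large rises are given next, picked by their known roles after their values were seen. Apol9a, an interferon-inducible apolipoprotein L gene, had 0 counts over the 3 uncultured libraries and 704 over the 3 uridine libraries, at least 172-fold higher when 3 counts are set as the limit for the uncultured group. Its near copy Apol9b had a log2 fold change of 7.21, and reads are uncertain between the copies. Ccl7, a chemokine for monocytes, had 0 and 606 counts, at least 148-fold higher. H2-M2, a class I gene outside the classical set, had 1 and 925 counts, a ratio of 677 with an interval of 121 to 26783. Saa3, an acute phase protein of macrophages, read 0.133, 0.487 and 0.207 CPM uncultured and 181, 186 and 176 CPM with uridine (log2 fold change 9.33, SE 0.10, adjusted p = 5.4e-40). Acod1, the enzyme that makes itaconate in activated macrophages, read 0.466, 0.417 and 0.551 CPM and 163, 164 and 161 CPM (log2 fold change 8.39, SE 0.09, adjusted p = 3.5e-40), and Nos2, inducible nitric oxide synthase, read 0, 0.0696 and 0.276 CPM and 15.6, 16 and 15.3 CPM (log2 fold change 7.02, SE 0.27, adjusted p = 9.3e-23). None of the 3 overlapped between the groups, which was a condition for naming a gene among the largest rises.

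Genes of monocytes and macrophages were mostly higher. Among 24 members with a test, 17 rose, 5 fell and 2 did not pass it (median 1.44, vehicle 1.65, subtracted 1.45), and the subtracted counts gave 17 higher and 6 lower. Lyz2, lysozyme M of myeloid cells, rose from 139, 139 and 143 CPM to 1775, 1779 and 1824 CPM (log2 fold change 3.68, SE 0.02, adjusted p = 5.7e-47). Fcgr1, the high-affinity IgG receptor, rose from 0.866, 0.696 and 0.344 CPM to 57.6, 54.2 and 58.1 CPM (log2 fold change 6.46, SE 0.16, adjusted p = 4.4e-29). The fractalkine receptor Cx3cr1 had a log2 fold change of 3.68, Ms4a4c of 3.92, the F4/80 gene Adgre1 of 2.50 and the pore-forming Mpeg1 of 2.08. Outside the list but among the 20 largest rises of all genes, Msr1, the scavenger receptor A, and C3ar1, the receptor of complement C3a, rose by 6.59 and 7.70 on the log2 scale. The lectin gene Clec4n, also among those 20, rose by 6.58. F13a1, of clot cross-linking, read 321, 364 and 334 CPM uncultured and 335, 327 and 329.9 CPM with uridine (adjusted p = 0.28), and the subtracted log2 fold change was -0.70.

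A related list of genes known to rise in macrophages in culture and in damaged tissue had 19 of 23 members higher, 3 lower and 1 not called, (median 2.09, vehicle 2.58, subtracted 2.37). Gpnmb, a glycoprotein of lipid-laden macrophages, read 13.4, 14.1 and 15.2 CPM without culture, 297, 287 and 289.5 CPM with uridine and 584, 586 and 559.7 CPM with vehicle (log2 fold change 4.35, SE 0.05, adjusted p = 9.7e-41). Lpl, lipoprotein lipase, rose from 5.9 ± 0.156 to 149 ± 1.24 CPM, Lgals3 (galectin-3) from 24.3 ± 0.987 to 152 ± 7.97 CPM and Spp1 (osteopontin) from 4.34 ± 1.46 to 40.4 ± 0.948 CPM. In young uncultured cells Gpnmb and Lpl were at 0.392 and 6.5 CPM. Acp5, tartrate-resistant acid phosphatase, went the other way, from 70.8 ± 2.78 to 9.16 ± 1.41 CPM (log2 fold change -2.95). Chil3 read 53.6 ± 1.85 CPM uncultured, 200.4, 200.02 and 199.6 CPM in the 3 uridine libraries, 72.1 CPM with vehicle and 469 CPM in young cells. Its log2 fold change of 1.90 was 0.39 in the subtracted counts.

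Of 28 measured chemokines and chemokine receptors, 22 rose and 6 fell (median 1.98, vehicle 2.18, subtracted 1.96). Ccl2, the ligand that draws monocytes, rose from 0.599, 1.88 and 0.62 CPM to 21.3, 19.2 and 21 CPM, and its receptor gene Ccr2 from 46.2 ± 1.96 to 160.2 ± 1.64 CPM. The receptors that hold cells in lymphoid tissue and marrow were among the 6 lower ones. Cxcr4, the receptor for the niche chemokine CXCL12, fell from 259, 266 and 267 CPM to 134, 125 and 124 CPM (log2 fold change -1.05, SE 0.04, adjusted p = 1.6e-24), with 83.7 CPM under vehicle. Cxcr5 of B cell follicles and Ccr7 of lymph node homing fell by 4.33 and 3.16 on the log2 scale. Ackr3, which binds CXCL12 without classical signalling and is not on the list, fell from 10.2 ± 2.55 to 0.117 ± 0.0759 CPM.

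NF-kB genes and inflammatory cytokines were split, with 13 higher, 13 lower and 3 not called of 29 (median -0.01, vehicle 0.22, subtracted 0.19). Il1b rose from 0.266, 1.11 and 1.24 CPM to 22.6, 22.5 and 23.2 CPM (log2 fold change 4.70, SE 0.18, adjusted p = 4.9e-23) and its antagonist Il1rn from 0.866, 0.278 and 0.413 CPM to 31, 28 and 33.5 CPM (log2 fold change 5.86, SE 0.18, adjusted p = 1.1e-25). The inhibitor Nfkbia fell from 527 ± 5.67 to 191 ± 2.9 CPM, Il10, an anti-inflammatory cytokine, from 11.2 ± 1.33 to 1.13 ± 0.139 CPM and the activation marker Cd83 from 84.8 ± 4.09 to 6.94 ± 0.21 CPM. Il6 read 2.53 ± 1.49 CPM uncultured, 13.2 ± 1.93 CPM with uridine, 2.94 CPM with vehicle and 28.7 CPM in young cells, so the vehicle level was near the uncultured one. Its log2 fold change of 2.39 was 1.17 in the subtracted counts.

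Platelet and megakaryocyte genes were the second group with nearly all members higher. Among 22 members with a test, 20 rose, 0 fell and 2 did not pass it (median 2.62), and the subtracted counts gave 20 higher and a median of 3.04. In vehicle cultures the median was 3.08. Pf4, platelet factor 4, rose from 10.5, 12.4 and 8.89 CPM to 196, 192 and 185 CPM (log2 fold change 4.17, SE 0.07, adjusted p = 3.5e-35). Ppbp, pro-platelet basic protein, rose from 1.33, 0.487 and 1.45 CPM to 57.7, 62.6 and 62.6 CPM (log2 fold change 5.79, SE 0.13, adjusted p = 2.4e-30). The fibrinogen receptor subunits Itga2b and Itgb3 rose from 53.9 ± 2.16 to 319 ± 7.65 CPM and from 28.8 ± 0.912 to 269.8 ± 1.98 CPM. All 4 genes had every uridine library above every uncultured library, where 69.3% of all genes tested had no overlap in either direction. These genes too were named partly for the size of their change, so this is no separate support.

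The group did not move as 1 block. Fli1, a transcription factor of the lineage, had a log2 fold change of -0.06 (adjusted p = 0.33) and was one of the 2 members not called. Plek (pleckstrin) and Rab27b, a GTPase of granule secretion, rose by 1.42 and 3.65 on the log2 scale. Vwf, von Willebrand factor, which is also read as a mark of platelet-biased stem cells, rose from 22.4, 23 and 19.9 CPM to 137, 136 and 143 CPM (log2 fold change 2.67, SE 0.06, adjusted p = 2.0e-30). Outside the list, Slc6a4, the serotonin transporter of platelets, was among the 20 largest rises of all genes, from 0, 0.209 and 0.138 CPM to 94.6, 94.7 and 94.4 CPM (log2 fold change 9.61). Gfi1b, a transcription factor of megakaryocyte and red cell progenitors, rose from 8.08 ± 0.988 to 36.3 ± 0.324 CPM.

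**Figure D3:**
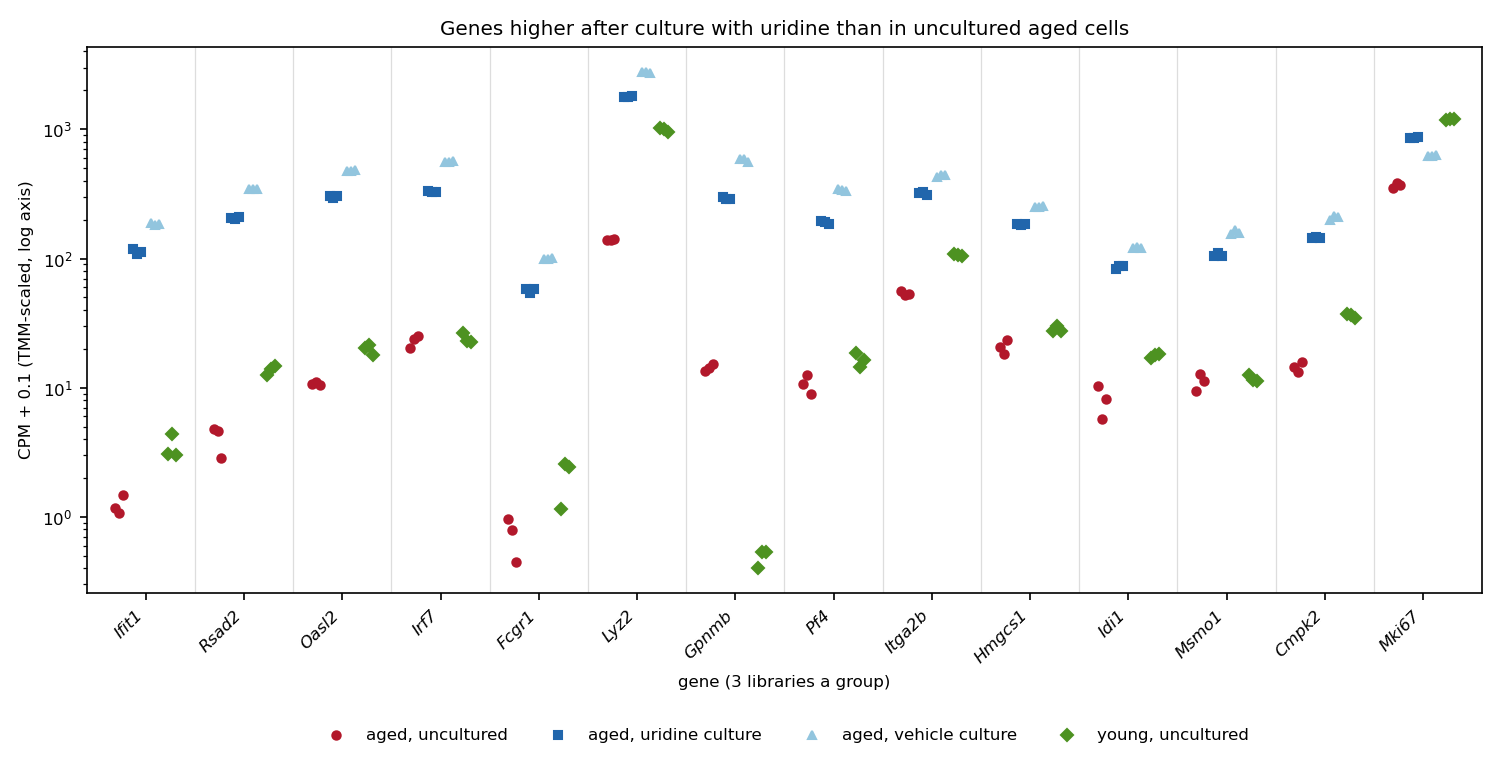
CPM + 0.1 in every library (y axis, log) of 14 genes that were higher after culture with uridine (x axis), with 3 points a group for aged uncultured, aged uridine, aged vehicle and young uncultured cells. The 3 uridine points lie above the 3 uncultured aged points for each gene, and the vehicle points lie above the uridine points for Ifit1, Rsad2, Gpnmb and Pf4.

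Nearly all cholesterol synthesis genes were higher. Among 25 members with a test, 24 rose, 0 fell and 1 did not pass it (median 1.97), and all 25 were higher in the subtracted counts (median 2.38). Vehicle cultures had a median of 2.38. Early and late steps moved together. Hmgcs1, which makes HMG-CoA, rose from 20.6, 18 and 23.3 CPM to 184, 181 and 185 CPM (log2 fold change 3.15, SE 0.05, adjusted p = 3.9e-34). Idi1, the isoprenoid isomerase, rose from 10.1, 5.64 and 8.06 CPM to 82.1, 87.2 and 87.4 CPM (log2 fold change 3.42, SE 0.09, adjusted p = 2.4e-28). Among the sterol steps, Cyp51 and Msmo1 rose by 2.83 and 3.26 on the log2 scale. Srebf2, the transcription factor of the pathway, rose by 0.63. Ebp was the member not called, at 39.5, 43.7 and 38.4 CPM and 43.3, 42.8 and 46.5 CPM (adjusted p = 0.082).

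The upstream window of Hmgcs1 holds the letters TCACNCCAC of a sterol regulatory element, shown here because it was the single match in the list. The letters were in 1 of the 17 cholesterol genes with a window (5.88%), against 141 of 11146 tested genes (1.27%), both strands searched. Capitals mark the match, 5′ to 3′ on the strand of the gene, from RefSeq on GRCm38.p6.
Hmgcs1 (chr13:119690194-119690242, plus strand): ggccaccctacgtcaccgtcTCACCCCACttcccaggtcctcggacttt

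Cholesterol efflux and lipid storage did not move as synthesis did, with 11 of 18 higher, 6 lower and 1 not called (median 0.90, vehicle 1.24, subtracted 1.09). Abca1, the cholesterol exporter, fell from 71.8, 75.1 and 73 CPM to 11, 8.95 and 10.3 CPM (log2 fold change -2.86, SE 0.08, adjusted p = 1.6e-26). Apoe, the lipoprotein that accepts that cholesterol, fell from 420.1, 366 and 385 CPM to 53.9, 53.7 and 51.2 CPM (log2 fold change -2.88, SE 0.05, adjusted p = 8.0e-35). The lipid droplet coat gene Plin2 rose from 45.3 ± 0.912 to 197 ± 2.25 CPM, and the scavenger receptors Cd36 and Scarb1 rose by 2.004 and 1.25 on the log2 scale. Fatty acid synthesis and oxidation had 21 of 27 members higher, 3 lower and 3 not called (median 0.86, vehicle 1.08, subtracted 1.01). Fasn, fatty acid synthase, rose from 192 ± 6.76 to 528 ± 8.29 CPM, the desaturases Fads1 and Fads2 by 1.82 and 2.54, and the elongase Elovl6 by 2.36. The 2 stearoyl-CoA desaturase genes went in opposite directions: Scd2 rose from 197 ± 5.45 to 615 ± 5.46 CPM and Scd1 fell from 286 ± 5.9 to 39.5 ± 1.83 CPM.

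Cell cycle genes were higher, by smaller factors than the groups above. Among 36 S phase genes, 32 rose, 2 fell and 2 did not pass the test (median 0.50, vehicle 0.40, subtracted 0.36). Among 31 genes of G2 and M phases, 29 rose, 0 fell and 2 did not pass it (median 0.69, vehicle 0.65, subtracted 0.61). In the subtracted counts the numbers were 27 higher and 3 lower for S phase, and 24 higher and 1 lower for G2 and M. Mki67, the Ki-67 antigen of cycling cells, rose from 351, 382 and 369 CPM to 857, 862 and 868 CPM (log2 fold change 1.23, SE 0.02, adjusted p = 7.1e-32), with 625 CPM under vehicle and 1195 CPM in young cells. Top2a, topoisomerase II of condensing chromosomes, rose from 423 ± 7.42 to 747 ± 12 CPM. The kinetochore genes Cenpe and Cenpf rose by 1.29 and 1.28 on the log2 scale. Among replication genes, the helicase subunit Mcm4 rose by 0.96, the licensing factor Cdc6 by 1.09 and the polymerase Pola1 by 1.10, while Pcna rose by 0.37 and its loader subunit Rfc2 read 170.0, 169.9 and 186 CPM and 169.8, 176 and 175 CPM (adjusted p = 0.75).

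Drivers of the G1 phase rose with them, 15 of 18 measured, with 2 lower and 1 not called (median 0.88, vehicle 0.65, subtracted 0.54). The D cyclin genes Ccnd1, Ccnd2 and Ccnd3 rose from 11.8 ± 1.86 to 48.8 ± 2.59 CPM, from 100.03 ± 3.41 to 238 ± 2.46 CPM and from 126 ± 7.02 to 262 ± 4.52 CPM, and their kinase gene Cdk6 rose from 325 ± 13.7 to 675 ± 13 CPM. Mycn rose from 5.26, 5.08 and 6.48 CPM to 28.3, 27.9 and 31.2 CPM (log2 fold change 2.38, SE 0.11, adjusted p = 5.0e-20), whereas Myc changed by 0.14 (adjusted p = 4.8e-04). The retinoblastoma gene Rb1 was the member not called (0.02, adjusted p = 0.76).

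Inhibitors of cell cycle kinases and targets of p53 were mixed, with 10 of 26 higher, 11 lower and 5 not called (median -0.10, vehicle 0.15, subtracted 0.04). Cdkn1c, the p57 inhibitor linked to stem cell quiescence, fell from 4.86, 6.26 and 5.65 CPM to 1.38, 2.35 and 2.93 CPM (log2 fold change -1.33, SE 0.24, adjusted p = 9.0e-06). Cdkn1a, the p21 inhibitor, rose from 82.5 ± 2.14 to 114 ± 2.43 CPM (log2 fold change 0.47). Cdkn2a, a marker of senescence, was low in all libraries, at 2.6, 2.92 and 1.31 CPM uncultured and 2.17, 2.66 and 2.44 CPM with uridine (adjusted p = 0.8). Of the p53 targets, Eda2r rose from 0.133, 0.209 and 0.482 CPM to 6.6, 6.6 and 5.27 CPM, Phlda3 by 2.71, Zmat3 by 1.53 and Ccng1 by 1.30 on the log2 scale. Mdm2, another target, read 106 ± 2.69 and 108 ± 2.85 CPM (adjusted p = 0.58), and Trp53inp1 fell from 457 ± 12.1 to 72.2 ± 6.32 CPM.

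Chromatin regulators had 19 of 28 members higher, 6 lower and 3 not called (median 0.34, vehicle 0.18, subtracted 0.25). Dnmt1, which copies DNA methylation at replication, rose from 340.1 ± 3.3 to 629.8 ± 2.24 CPM, its partner Uhrf1 from 162 ± 4.97 to 366 ± 4.78 CPM and the de novo enzyme Dnmt3a from 81.1 ± 3.76 to 151 ± 7.5 CPM. Cbx7, a Polycomb subunit of stem cells, fell from 217, 228 and 224 CPM to 18, 22.1 and 19.5 CPM (log2 fold change -3.49, SE 0.06, adjusted p = 1.6e-34), and in both other groups it was also low, at 17.4 CPM with vehicle and 23.1 CPM in young cells.

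Among stress and housekeeping systems, lysosome and iron genes were mostly higher. Lysosome and autophagy genes had 23 of 37 higher, 10 lower and 4 not called (median 0.38, vehicle 0.74, subtracted 0.60). Ctsb, cathepsin B, rose from 367 ± 4.11 to 789.6 ± 7.25 CPM, Psap, prosaposin, from 883 ± 6.26 to 1804 ± 25.2 CPM and Grn, progranulin, from 169 ± 5.89 to 538 ± 7.65 CPM. Iron genes had 11 of 14 higher, 2 lower and 1 not called (median 0.53, vehicle 0.59, subtracted 0.56). The ferritin heavy chain gene Fth1 rose from 839.7, 795 and 783 CPM to 1508, 1501 and 1491 CPM, the transferrin receptor gene Tfrc from 132 ± 5.28 to 286 ± 5.45 CPM and Hmox1, haem oxygenase 1, from 12.7 ± 0.487 to 44.8 ± 1.66 CPM. NRF2 antioxidant genes had 18 of 30 higher, 9 lower and 3 not called (median 0.22, vehicle 0.39, subtracted 0.17). Slc7a11, the cystine importer, rose from 0.732, 0.765 and 0.758 CPM to 26.2, 31.7 and 31.4 CPM (log2 fold change 5.30, SE 0.16, adjusted p = 2.3e-26), and the reductase gene Srxn1 from 6.75 ± 2.03 to 37.8 ± 3.5 CPM, whereas Osgin1 fell from 45.4 ± 2.41 to 5.02 ± 0.876 CPM and Gstm1 from 305 ± 5.14 to 107 ± 3.7 CPM.

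Heat shock chaperones had 15 of 21 higher, 3 lower and 3 not called (median 0.48, vehicle 0.39, subtracted 0.23). Hsph1 rose by 1.53 on the log2 scale and the abundant Hspa8 from 1645 ± 11.5 to 2599 ± 34.1 CPM. Ribosome biogenesis had 22 of 36 higher, 8 lower and 6 not called (median 0.13, vehicle 0.14, subtracted 0.09). Aminoacyl-tRNA synthetases had 10 of 20 higher, 3 lower and 7 not called (median 0.10, vehicle 0.22, subtracted 0.17). Among their members, Ncl, nucleolin, rose by 0.14, the small-subunit processing factor Heatr1 by 0.88 and the isoleucyl-tRNA synthetase Iars by 0.89, while Vars fell by 0.81. Named for the size of their loss in CPM, and on none of the lists, Eef1a1, the elongation factor that brings tRNA to the ribosome, fell from 10307, 10187 and 10422 CPM to 7471, 7420.2 and 7499.5 CPM (log2 fold change -0.47, SE 0.01, adjusted p = 3.5e-29), Eef2 by 0.41, the ribosomal protein gene Rpsa by 0.76 and Tpt1 by 1.09 on the log2 scale. Among genes of the cytoskeleton, Actb rose from 1523 ± 6.22 to 2299.8 ± 17.6 CPM, Flna, filamin A, by 0.99 and Myh9, non-muscle myosin, by 0.87.

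Antibody genes had the lowest median of the 57 lists. All 13 measured immunoglobulin constant genes, Jchain included, fell, and the median was -5.39 on the log2 scale (-5.18 with vehicle, -5.83 in the subtracted counts). Igha, the IgA heavy chain, was the most abundant transcript of the uncultured aged libraries at 114727, 113754 and 115440.1 CPM and stood at 2035, 1953 and 1992 CPM with uridine (log2 fold change -5.85, SE 0.01, adjusted p = 2.1e-62). Igkc, the kappa light chain, went from 59569, 57972 and 56163 CPM to 982, 941 and 967 CPM (log2 fold change -5.91, SE 0.02, adjusted p = 4.2e-58). Jchain, which joins IgA and IgM units, went from 23598, 23350.3 and 23474 CPM to 450.2, 436 and 431 CPM (log2 fold change -5.74, SE 0.02, adjusted p = 1.2e-57). Ighm, the IgM heavy chain, fell less, from 13446, 13288 and 13339 CPM to 1049, 1032 and 1037 CPM (log2 fold change -3.68, SE 0.02, adjusted p = 3.1e-53). The young uncultured level of Igha, 964 CPM, and of Jchain, 303 CPM, was below the uridine level. Reads of the near-identical Ighg2b and Ighg2c are uncertain between the copies, and they fell by 6.12 and 6.23 on the log2 scale.

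Genes of the secretory plasma cell fell beside the antibody genes, 18 of 20 measured, with 1 higher and 1 not called (median -2.19, vehicle -2.08, subtracted -2.19). Xbp1, the transcription factor of the secretory programme, fell from 855, 855 and 864 CPM to 193, 185 and 186 CPM (log2 fold change -2.19, SE 0.03, adjusted p = 5.0e-38). Prdm1, which encodes BLIMP-1, fell from 139, 127 and 134 CPM to 5.22, 7.21 and 8.95 CPM (log2 fold change -4.22, SE 0.09, adjusted p = 2.9e-30). Tnfrsf17, the survival receptor BCMA, and the antibody chaperone gene Mzb1 fell by 5.45 and 4.24 on the log2 scale. Derl3, of endoplasmic reticulum quality control, fell by 5.04. The member that rose, Ly6c2, is also a monocyte gene (594 ± 4.72 to 989.5 ± 6.72 CPM). The summed level of the list was 6323 to 6404 CPM in the uncultured aged libraries and 2016 to 2035 CPM with uridine.

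Mature B cell genes fell in all 19 measured members (median -3.51, vehicle -5.39, subtracted -5.24). Cd79a, a signalling chain of the B cell receptor, fell from 709, 670.4 and 716 CPM to 50.4, 49 and 52 CPM (log2 fold change -3.79, SE 0.04, adjusted p = 5.9e-41). Ms4a1, which encodes CD20, fell from 227, 222 and 222 CPM to 6.11, 4.71 and 4.82 CPM (log2 fold change -5.42, SE 0.08, adjusted p = 8.2e-37). For these genes the vehicle level was lower still, 13.3 CPM for Cd79a and 3.65 CPM for Ms4a1, and the young level was 134 and 11.7 CPM. The lineage factor Pax5 fell from 178 ± 8.76 to 43.3 ± 4.7 CPM, and Fcmr, the IgM Fc receptor, had one of the 20 largest falls of all genes, from 237 ± 7.05 to 3.07 ± 0.172 CPM. The adaptor Blnk and the transcription factor Ikzf3 fell by 2.03 and 3.88 on the log2 scale.

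MHC class II genes, which present peptides to helper T cells and are carried by B cells and dendritic cells, fell in 12 of 14 measured members, with 1 higher and 1 not called (median -2.99, vehicle -2.96, subtracted -3.21). Cd74, the invariant chain, fell from 4208, 3989 and 4142 CPM to 266, 270.0 and 275 CPM (log2 fold change -3.93, SE 0.02, adjusted p = 1.2e-48). H2-Aa and H2-Ab1, the I-A chains, fell from 914 ± 8.2 to 55.9 ± 1.13 CPM and from 1125 ± 29.6 to 90.9 ± 1.99 CPM. Their vehicle levels, 83 and 111 CPM, and young levels, 63.3 and 108 CPM, were likewise far below the uncultured aged levels. Ctss, the cathepsin of class II processing and also a macrophage gene, rose from 199.7 ± 4.63 to 316 ± 1.66 CPM. MHC class I and immunoproteasome genes had 7 of 18 higher, 6 lower and 5 not called (median -0.03, vehicle 0.38, subtracted 0.17), and in the subtracted counts 13 higher and 3 lower. H2-K1 read 2424 ± 38.3 CPM uncultured, 2148 ± 19.1 CPM with uridine, 2843 CPM with vehicle and 1295 CPM in young cells, and B2m had a log2 fold change of -0.03 (adjusted p = 0.084). The class I genes are close copies of each other, so reads between them are uncertain.

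T cell and natural killer cell genes fell in 23 of 25 measured members and 2 were not called (median -1.97, vehicle -3.63, subtracted -3.32). Cd2, an adhesion receptor of T cells, fell from 64, 67.7 and 67.5 CPM to 1.38, 2.15 and 2.44 CPM (log2 fold change -5.06, SE 0.16, adjusted p = 3.6e-25). The T cell receptor constant genes Trac and Trbc2 fell from 10.4 ± 1.6 to 1.25 ± 0.207 CPM and from 10.0 ± 1.24 to 1.25 ± 0.437 CPM, and Cd8a from 13.7 ± 0.175 to 1.62 ± 0.258 CPM. Ctla4, an inhibitory receptor of T cells that is not on the list, was among the 20 largest falls of all genes, from 145, 155 and 155 CPM to 1.08, 1.48 and 2.09 CPM (log2 fold change -6.61). Without culture Cd2 and Ctla4 stood far above Trac and Trbc2, and which cells carried them was not tested. Ncr1 and Gzma were the 2 members not called, at means of 1.12 ± 0.338 and 0.902 ± 0.0994 CPM with uridine. Dendritic cell genes were split, 6 higher, 6 lower and 6 not called of 18 (median 0.15, vehicle -0.61, subtracted -0.33), and in the subtracted counts 3 were higher, 8 lower and 7 not called.

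Early response genes were the second large block of losses. Of 27 measured immediate early genes, 26 fell and 1 rose (median -1.75, vehicle -3.24, subtracted -2.99), and the subtracted counts gave 26 lower and 1 higher. Fos, of the AP-1 transcription factor, fell from 2247, 2293 and 2277 CPM to 465, 479.8 and 472 CPM (log2 fold change -2.27, SE 0.02, adjusted p = 9.7e-41). Its partner Jun fell from 2325, 2265 and 2301 CPM to 668, 654 and 660.1 CPM (log2 fold change -1.80, SE 0.02, adjusted p = 3.4e-38). The orphan receptor gene Nr4a1, a reporter of recent signalling, fell from 1083, 1064 and 1088 CPM to 169, 165 and 164 CPM (log2 fold change -2.70, SE 0.03, adjusted p = 2.9e-41). The groups did not overlap for any of the 27 members, against no overlap for 69.3% of all genes tested. The uridine levels lay between the vehicle and the young levels: Fos was at 60.9 CPM with vehicle and 1535 CPM in young cells, Jun at 88.7 and 1939 CPM and Nr4a1 at 7.42 and 469 CPM.

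Genes linked to quiescence and mRNA decay moved alike, with 13 of 17 lower, 3 higher and 1 not called (median -0.73, vehicle -1.28, subtracted -1.18). Zfp36, tristetraprolin, which marks cytokine mRNAs for decay, fell from 1497, 1464 and 1469.9 CPM to 334, 346 and 339 CPM (log2 fold change -2.12, SE 0.02, adjusted p = 2.3e-40). Tsc22d3, the glucocorticoid-induced leucine zipper, fell from 709, 696 and 698 CPM to 72.7, 75.4 and 66.5 CPM (log2 fold change -3.29, SE 0.04, adjusted p = 3.1e-40). Klf2, a factor of lymphocyte and endothelial quiescence, fell from 896 ± 36 to 176 ± 4.62 CPM, the antiproliferative Btg1 from 585 ± 17.8 to 202 ± 5.23 CPM and Foxo1 from 60.5 ± 2.54 to 17.3 ± 0.711 CPM. Clock genes had 12 of 19 lower, 1 higher and 6 not called (median -0.58, vehicle -0.86, subtracted -0.83). Per1 fell from 369 ± 3.11 to 153 ± 1.14 CPM and Bhlhe41 from 62 ± 4.21 to 6.04 ± 1.03 CPM, whereas the core genes Clock and Arntl were not called (adjusted p = 0.091 and 0.62). The labels give no time of day.

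Feedback genes of cytokine signalling were split, 8 higher, 6 lower and 4 not called of 18 (median 0.02, vehicle -0.01, subtracted 0.11). The suppressor Socs3 fell from 186 ± 5.88 to 39.4 ± 0.283 CPM, and the kinases Pim1 and Pim3 by 1.14 and 1.14 on the log2 scale, while Socs1 and Socs2 were not called (adjusted p = 0.78 and 0.12). Of 18 feedback genes of the ERK pathway, 11 rose, 4 fell and 3 did not pass the test (median 0.71, vehicle 0.48, subtracted 0.42). The phosphatase Dusp5 fell from 229 ± 3.87 to 51.1 ± 2.48 CPM, whereas Dusp6 rose from 45.6 ± 1.39 to 100.4 ± 4.03 CPM with 58.7 CPM under vehicle. Growth factor receptors had 17 of 24 higher, 4 lower and 3 not called (median 0.48, vehicle 0.50, subtracted 0.52). Csf1r, the receptor of macrophage colony-stimulating factor, rose from 78.7, 73.5 and 76.5 CPM to 322, 314 and 324 CPM, and the beta chains Csf2rb and Csf2rb2, which are near copies, rose by 1.08 and 3.11. Il5ra, the interleukin 5 receptor of eosinophils and B cells, fell from 30.8, 30.8 and 34.7 CPM to 1.63, 1.43 and 2.74 CPM (log2 fold change -4.05, SE 0.17, adjusted p = 4.3e-22).

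**Figure D4:**
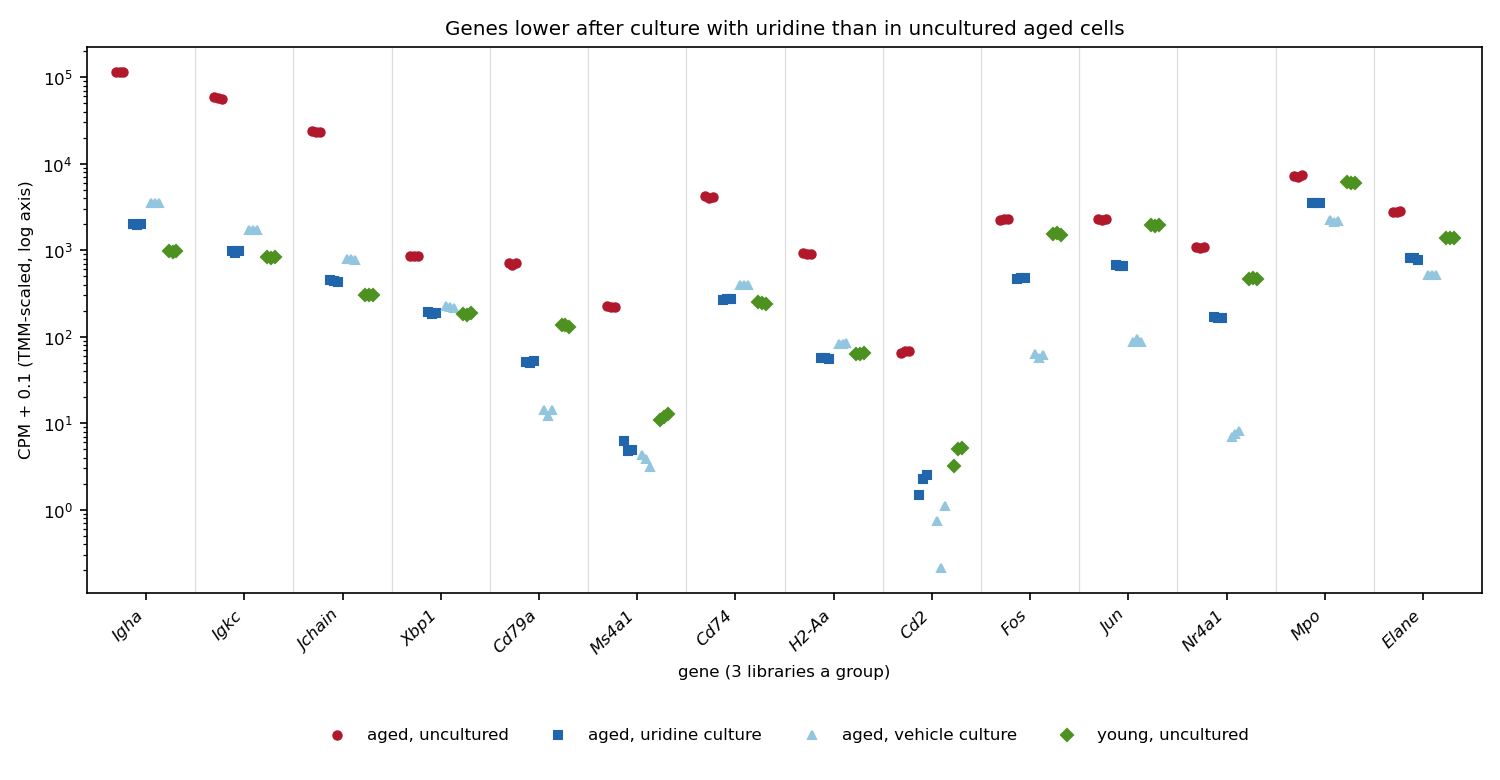
CPM + 0.1 in every library (y axis, log) of 14 genes that were lower after culture with uridine (x axis), with 3 points a group for aged uncultured, aged uridine, aged vehicle and young uncultured cells. The 3 uridine points lie below the 3 uncultured aged points for each gene, and for Fos, Jun and Nr4a1 they lie above the vehicle points and below the young points.

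Granulocyte progenitor genes fell. Of 15 primary granule genes, 12 fell and 3 rose (median -1.03, vehicle -1.61, subtracted -1.36). Mpo, myeloperoxidase, fell from 7216, 7094 and 7453 CPM to 3557, 3526 and 3550.0 CPM (log2 fold change -1.03, SE 0.02, adjusted p = 3.5e-35), with 2171 CPM under vehicle and 6019.9 CPM in young cells. Elane, neutrophil elastase, fell from 2773, 2736 and 2876 CPM to 806, 811 and 764 CPM (log2 fold change -1.82, SE 0.02, adjusted p = 5.9e-39). Prtn3 and Ctsg, the other granule proteases, fell by 1.49 and 1.18 on the log2 scale. Gfi1, a transcription factor of the lineage, fell from 99.4 ± 6.36 to 42.2 ± 0.598 CPM.

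Genes of the unfolded protein response of the endoplasmic reticulum fell in 17 of 23 measured members, with 4 higher and 2 not called (median -0.49, vehicle -0.47, subtracted -0.46). Herpud1 fell from 580.5, 569 and 571 CPM to 109, 98.3 and 106 CPM (log2 fold change -2.46, SE 0.03, adjusted p = 8.9e-37), Dnajb9 by 1.44 and Creld2 by 1.38 on the log2 scale, while the main chaperone gene Hspa5 was not called (1375 ± 11.4 and 1384 ± 12.6 CPM, adjusted p = 0.68). The summed level of the antibody genes fell in the same libraries, and its part in this result was not tested. Of 28 genes of the ATF4 response, 13 rose, 12 fell and 3 did not pass the test (median 0.10, vehicle 0.25, subtracted 0.20). Atf4 fell from 446 ± 11.2 to 231 ± 4.81 CPM and Ppp1r15a from 402 ± 13 to 97.5 ± 1.05 CPM, while the amino acid enzymes Asns and Phgdh were not called.

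Respiratory chain genes were slightly lower. Of 76 nuclear-encoded subunit genes, 56 fell, 3 rose and 17 were not called (median -0.22, vehicle -0.10, subtracted -0.30). Cox4i1 fell from 318, 315 and 319.7 CPM to 252, 235 and 252 CPM (log2 fold change -0.37, SE 0.04, adjusted p = 3.8e-11), Uqcrc1 by 0.35 and Ndufb11 by 0.85 on the log2 scale. The ATP synthase gene Atp5b rose by 0.05 (adjusted p = 0.031), a call that most alternative settings did not keep, and its subtracted value was -0.06. Of 13 mitochondrially encoded genes, 7 fell, 3 rose and 3 were not called (median -0.35, vehicle -0.41, subtracted -0.34). The share of counts from the mitochondrial genome was 1.33% ± 0.0294 uncultured and 1.57% ± 0.0114 with uridine (n = 3 each), where immunoglobulin genes are part of the total. On the TMM scale the summed level of the 13 genes was lower, 15093 to 15779 CPM uncultured and 13761 to 14037 CPM with uridine. Glycolysis genes had 15 of 24 higher, 7 lower and 2 not called (median 0.24, vehicle 0.27, subtracted 0.25). The glucose transporter gene Slc2a3 rose from 40.7 ± 2.43 to 137 ± 2.75 CPM, the lactate exporter Slc16a3 by 1.24 and lactate dehydrogenase Ldha by 0.24 on the log2 scale. Of 22 hypoxia-inducible genes, 8 rose, 11 fell and 3 did not pass the test (median -0.24, vehicle -0.28, subtracted -0.40).

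Late granule, B cell precursor, erythroid, stroma and eosinophil genes are given together because, as seen in their values, their medians changed sign after subtraction. Late granule genes of maturing neutrophils had 19 of 20 higher and 1 not called (median 1.91, vehicle -0.37, subtracted -0.28), and 6 higher, 10 lower and 4 not called after subtraction. Ltf, lactoferrin, read 59.6, 56.4 and 56 CPM uncultured, 356, 337 and 359.9 CPM with uridine, 10.9, 9.39 and 8.3 CPM with vehicle and 1015, 1026 and 1031 CPM in young cells. Ngp, neutrophilic granule protein, read 122, 125 and 121 CPM uncultured, 566, 554 and 561 CPM with uridine, 30.6, 30.4 and 34.7 CPM with vehicle and 1582, 1583 and 1641 CPM in young cells. For both genes the uridine libraries were above the uncultured aged libraries and the vehicle libraries below them, with subtracted log2 fold changes of -1.01 and -1.004. S100a8 and S100a9, the calprotectin chains, had log2 fold changes of 1.54 and 1.37, and -0.20 and -0.36 after subtraction. Mmp8 kept its rise, 4.57 as deposited and 4.66 after subtraction, with 61 CPM under vehicle.

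B cell precursor genes had 14 of 15 higher and 1 lower (median 2.49, vehicle -1.49, subtracted -0.12), and 7 higher, 6 lower and 2 not called after subtraction. Igll1 and Vpreb1, which make the surrogate light chain of the pre-B cell receptor, rose from 5.13, 4.17 and 2.82 CPM to 35.8, 36.3 and 37.4 CPM and from 4.39, 3.83 and 4.48 CPM to 25, 27.2 and 23.5 CPM. Their vehicle levels were 1.0007 and 0.724 CPM, their young levels 111 and 73 CPM, and their subtracted log2 fold changes -2.32 and -0.83, the latter not past the test. Rag1, of the recombinase, had 2.51 as deposited and -2.07 after subtraction, and Dntt, which adds bases at the joins, 0.78 and -2.49. Bst1 and Sox4 rose in both, by 5.26 and 1.63 as deposited and by 5.55 and 1.17 after subtraction. Neither gene is particular to B cell precursors, so their rise is not read as a sign of those cells. Lymphoid-primed progenitor genes went from 8 higher and 8 lower of 17 to 4 higher and 12 lower after subtraction (median -0.01, vehicle -0.59, subtracted -1.16). That list also holds Ighm, Blnk, Ikzf3 and Lck, which mature lymphocytes express, so the shift is not particular to progenitors.

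Erythroid genes had 13 of 26 higher, 5 lower and 8 not called (median 0.24, vehicle -3.75, subtracted -1.96), and 4 higher, 19 lower and 3 not called after subtraction. Slc4a1, the band 3 anion exchanger of red cells, read 5.86, 4.8 and 5.79 CPM uncultured and 25.2, 24.6 and 22.8 CPM with uridine, was at 68.9 CPM in young cells, and had 0 counts with vehicle. Klf1, the main red cell transcription factor, read 13.2, 13.8 and 11.4 CPM uncultured and 14.3, 12.1 and 10.6 CPM with uridine (adjusted p = 0.68), with 1.16 CPM under vehicle and 34.3 CPM in young cells. Car1, carbonic anhydrase 1, fell from 78.6, 79.5 and 77.2 CPM to 41.6, 39.6 and 40.1 CPM, with 0.165 CPM under vehicle. Tal1 and Mfsd2b, also on the list, stood otherwise than Klf1 and Car1. Tal1 rose from 41.2 ± 2.32 to 97.8 ± 3.04 CPM and Mfsd2b from 16.2 ± 1.12 to 54 ± 4.15 CPM, with vehicle levels of 108 and 59.5 CPM.

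Stroma, bone and endothelium genes had 11 of 20 higher, 5 lower and 4 not called (median 1.71, vehicle -1.60, subtracted -1.42), and 3 higher, 11 lower and 6 not called after subtraction. Col1a1, type I collagen of bone, read 0.732, 1.11 and 1.03 CPM uncultured, 75.8, 79.7 and 74.5 CPM with uridine, 0.263, 0.275 and 0.169 CPM with vehicle and 270.3, 281 and 264 CPM in young cells. Its log2 fold change of 6.31 is among the 20 largest rises as deposited, and in the subtracted counts, where few or no counts of the gene were left, it was lower. Col1a2 and Sparc had the same order of groups, with 59.1 ± 3.13 and 10.5 ± 0.0599 CPM with uridine and 208 and 42.1 CPM in young cells. Kdr, the VEGF receptor 2, differed from them: it rose from 0.799, 1.6 and 0.482 CPM to 26.2, 26.4 and 26.8 CPM, was at 43.5 CPM with vehicle and had a subtracted log2 fold change of 5.28.

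Eosinophil genes had 7 of 10 higher, 2 lower and 1 not called (median 1.27, vehicle -1.37, subtracted -1.03), and 1 higher, 5 lower and 4 not called after subtraction. The ribonuclease genes Ear1, Ear2 and Ear6 are near copies whose reads are uncertain: they had log2 fold changes of 1.94, 1.87 and 3.07, and of -1.34, -2.93 and -1.21 after subtraction, where Ear6 did not pass the test. Epx, eosinophil peroxidase, rose by 1.10, and its subtracted value of 0.15 did not pass the test. Of the basophil and mast cell genes, 14 of 18 were higher and 1 lower as deposited (median 1.04, vehicle 0.90, subtracted 0.60), and 14 were higher and 2 lower after the subtraction. Ms4a2, the beta chain of the IgE receptor, rose from 10.1, 6.4 and 7.79 CPM to 43.6, 42.9 and 40.2 CPM (log2 fold change 2.38, SE 0.10, adjusted p = 9.3e-22), and Cpa3, mast cell carboxypeptidase, from 25 ± 1.09 to 77.8 ± 2.64 CPM. Prss34, a basophil protease, read 72.3 ± 3.51 CPM uncultured, 286 ± 4.82 CPM with uridine, 109 CPM with vehicle and 689.6 CPM in young cells, and its log2 fold change of 1.98 was 0.34 after subtraction.

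Genes listed for long-term stem cell identity had no common direction, with 13 of 29 higher, 10 lower and 6 not called. Their median was 0.01 (0.17 with vehicle, 0.07 after subtraction). The list also holds genes that are not particular to those cells, such as Kit, Cd34 and Flt3. A rise in these is not read as a gain of that identity. Among surface markers, Procr, which encodes EPCR, fell from 15.3, 13 and 18.3 CPM to 11.1, 9.41 and 9.6 CPM (log2 fold change -0.63, SE 0.12, adjusted p = 2.4e-05). Slamf1, which encodes CD150, fell from 7.12, 6.89 and 6.61 CPM to 2.86, 3.38 and 3.73 CPM (log2 fold change -1.05, SE 0.18, adjusted p = 5.1e-06). Ly6a read 252, 242 and 247 CPM and 265, 249.7 and 261 CPM (adjusted p = 0.072), with 455 CPM under vehicle and 17.8 CPM in young cells, and a subtracted log2 fold change of 0.58. Kit rose from 201 ± 3.3 to 274 ± 3.85 CPM and Cd34 from 201 ± 8.07 to 349 ± 9.23 CPM. The reporter genes Fgd5, Robo4 and Thy1 fell by 0.83, 0.98 and 0.84 on the log2 scale. Sult1a1 fell from 17.2, 15.6 and 17.1 CPM to 1.43, 1.38 and 1.84 CPM. Ifitm3 and Ifitm1 are on this list and are also induced by interferon: they rose by 3.01 and 1.34.

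Transcription factors of the stem cell state moved in both directions. Mecom and Hlf were not called (log2 fold changes of -0.19 and -0.10). Meis1 and Hoxa9 rose by 0.35 and 0.24, Gata2 by 0.67, while Bmi1 fell by 0.38 and Mllt3 by 0.71 on the log2 scale. Hoxb5, at 0.533, 1.53 and 1.38 CPM uncultured and 0.985, 0.409 and 0.298 CPM with uridine, was near the limit of detection (adjusted p = 0.079). Of 16 Hox, Meis and Pbx genes, 5 rose, 3 fell and 8 did not pass the test (median 0.03, vehicle 0.02, subtracted 0.07). Hoxb4 rose from 8.38 ± 1.76 to 12 ± 1.05 CPM, and Hoxa5 fell from 12.3 ± 0.215 to 4.64 ± 0.757 CPM. Lineage transcription factors had 13 of 31 higher, 14 lower and 4 not called (median -0.06, vehicle -0.34, subtracted -0.27).

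Markers of aged stem cells likewise went both ways, with 15 of 29 higher, 11 lower and 3 not called (median 0.39, vehicle 0.41, subtracted 0.48). The platelet-linked markers Vwf, Itgb3, Fyb and Cavin2 rose, the last 2 by 2.60 and 1.64 on the log2 scale. Selp, P-selectin, rose from 23.4, 19.4 and 23.6 CPM to 37.9, 40.2 and 37.2 CPM (log2 fold change 0.80, SE 0.08, adjusted p = 5.9e-11), against 6.2 CPM in young cells. Clu, clusterin, rose from 12.1, 12.1 and 8.27 CPM to 14.6, 14.5 and 16 CPM (log2 fold change 0.47, SE 0.13, adjusted p = 0.0016), and Ehd3 from 22.9 ± 2.21 to 39.3 ± 2.73 CPM. Aldh1a1 and Nupr1 rose by 0.46 and 1.07. Alcam fell from 65.9, 63.8 and 71.1 CPM to 42.3, 43.8 and 47 CPM (log2 fold change -0.59, SE 0.06, adjusted p = 5.7e-11). Neo1, neogenin, fell from 4.66, 6.96 and 5.37 CPM to 0.591, 0.716 and 0.796 CPM, and Cd38 from 67.7, 67.3 and 63.8 CPM to 7.24, 5.37 and 5.22 CPM. Tc2n had 50 counts uncultured and 0 with uridine, at least 22.8-fold lower with the same limit of 3 counts for the group. Mt1, metallothionein 1, fell from 112 ± 1.05 to 19.4 ± 0.77 CPM. Ptprk, Wwtr1 and Dsg2 were not called.

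**Figure D5:**
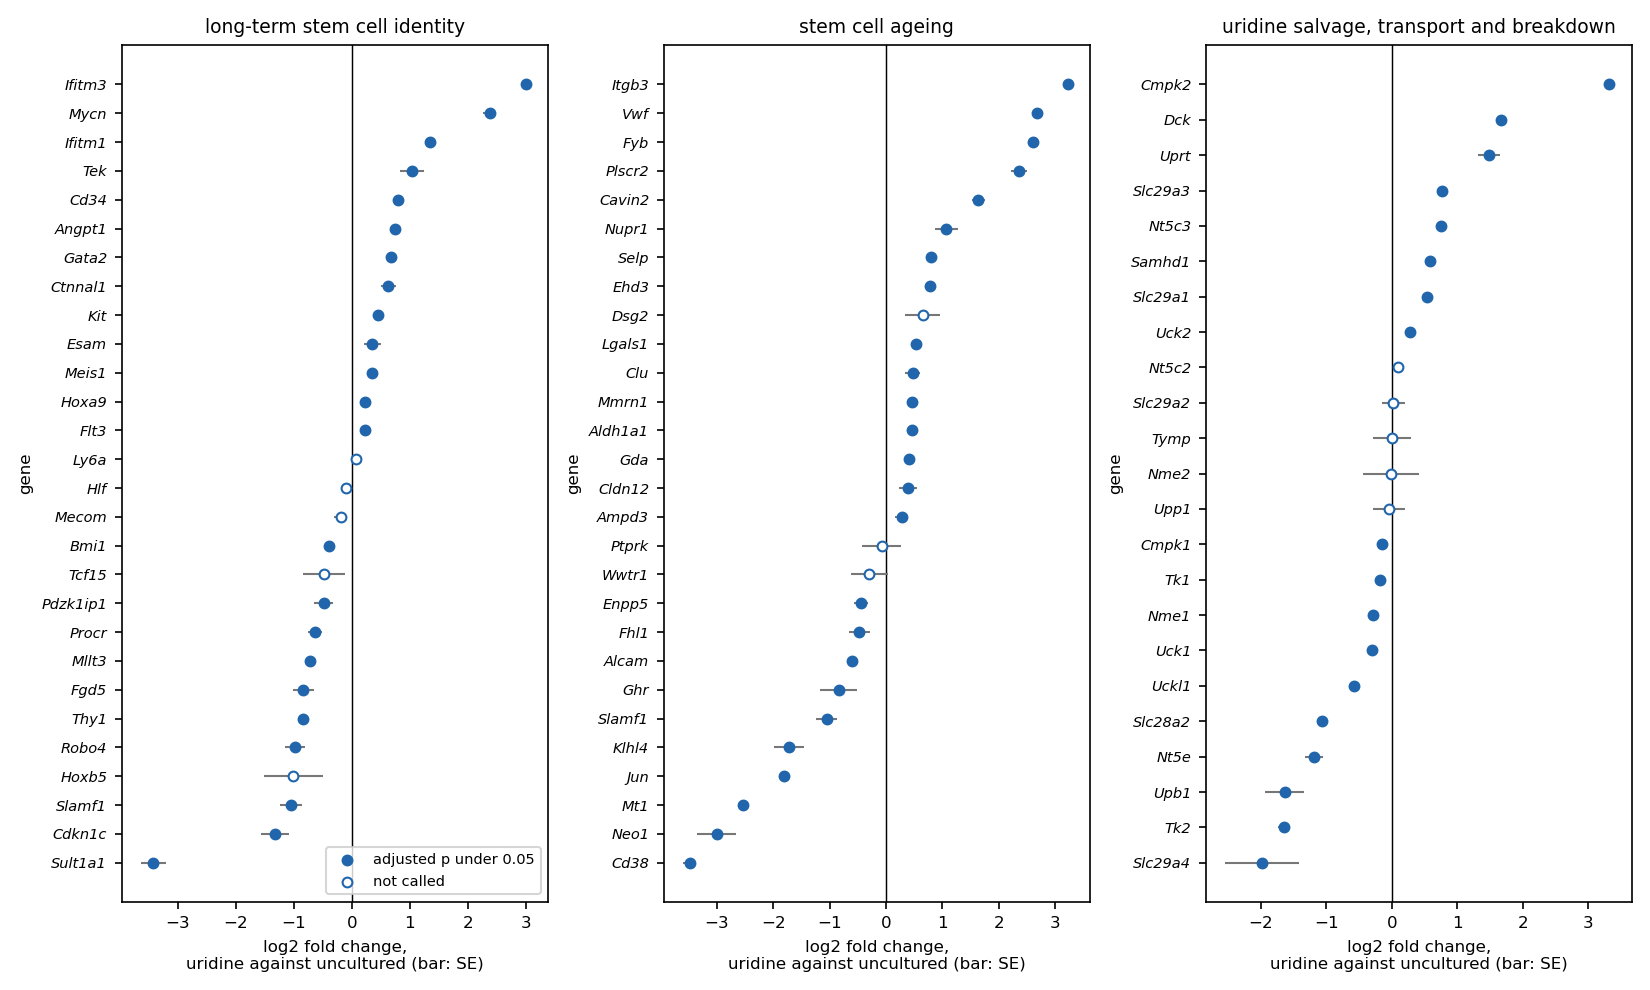
Log2 fold change of uridine culture against uncultured aged cells (x axis, bar: SE) for members of 3 lists (y axis): long-term stem cell identity, stem cell ageing and uridine handling, with filled points for an adjusted p under 0.05 and open points for genes not called. Tc2n, with 0 counts after culture, and 1 gene not reported here are left out. Each list has members on both sides of 0, and 13, 15 and 8 of them rose.

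Genes that handle uridine were split as well, with 8 of 23 higher, 10 lower and 5 not called (median -0.01, vehicle -0.01, subtracted -0.11). Among the carriers, the equilibrative transporter Slc29a1 rose from 56.9, 48.4 and 51.9 CPM to 75.6, 74.7 and 77.8 CPM (log2 fold change 0.54, SE 0.05, adjusted p = 6.1e-11), with 64.3 CPM under vehicle and 106 CPM in young cells. Slc29a3, the lysosomal form, rose by 0.77, and Slc29a2 was not called (5.19, 6.19 and 7.17 and 4.63, 8.08 and 6.17 CPM, adjusted p = 0.91). The concentrative transporter Slc28a2 fell from 145, 137 and 152 CPM to 67.8, 67.8 and 71.2 CPM (log2 fold change -1.07, SE 0.05, adjusted p = 2.5e-21). Slc29a4, a carrier of monoamines and adenosine, fell by 1.98 on the log2 scale from a low level (1.14 ± 0.424 CPM). Of the carriers called, 2 rose and 2 fell.

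The kinases that trap uridine as UMP changed by 0.57 or less on the log2 scale. Uck2, the high-affinity uridine-cytidine kinase, rose from 216, 218 and 217 CPM to 262, 266 and 258 CPM (log2 fold change 0.27, SE 0.03, adjusted p = 7.6e-10). Uck1 and Uckl1 fell, from 60.2 ± 0.897 to 48.9 ± 1.51 CPM and from 43.9 ± 2.21 to 29.6 ± 0.467 CPM. Among breakdown enzymes, Upp1, uridine phosphorylase, read 5.53, 4.11 and 2.55 CPM uncultured and 3.55, 4.35 and 3.98 CPM with uridine (adjusted p = 0.89), with 7.82 CPM under vehicle, and Upb1, the last step of uracil breakdown, fell from 4.04 ± 0.915 to 1.31 ± 0.453 CPM. Nt5e, which encodes CD73 and dephosphorylates nucleotides outside the cell, fell from 18.9 ± 1.48 to 8.32 ± 1.5 CPM. Cmpk2, a mitochondrial nucleotide kinase that is also induced by interferon, was the largest change of the list, from 14.4, 13.2 and 15.7 CPM to 143, 146 and 143 CPM (log2 fold change 3.32, SE 0.06, adjusted p = 1.8e-34). Dck, deoxycytidine kinase, rose from 46.7 ± 1.68 to 149 ± 4.43 CPM and Uprt, uracil phosphoribosyltransferase, from 4.85 ± 1.83 to 13.6 ± 2.14 CPM, while the mitochondrial thymidine kinase Tk2 fell from 62 ± 3.67 to 19.8 ± 1.06 CPM.

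De novo pyrimidine and thymidylate synthesis rose modestly, 12 of 17 measured, with 4 lower and 1 not called (median 0.28, vehicle 0.25, subtracted 0.19). Cad, which carries the first steps, rose from 205, 200.5 and 199.9 CPM to 307, 296 and 291 CPM (log2 fold change 0.56, SE 0.03, adjusted p = 7.8e-19), Umps, which makes UMP, rose from 93.6 ± 1.1 to 113 ± 4.61 CPM, and Dhodh, the mitochondrial step between them, fell from 31.7 ± 1.59 to 25.5 ± 1.68 CPM. The S phase enzymes of deoxynucleotide supply rose, Rrm2 from 129 ± 5.62 to 228 ± 0.586 CPM and Tyms, thymidylate synthase, from 49.9 ± 2.61 to 78.3 ± 2.05 CPM. The CTP synthase genes went apart, Ctps higher by 0.38 and Ctps2 lower by 0.23 on the log2 scale. Vehicle levels of Cad, Umps and Rrm2 were 241, 113 and 224 CPM. De novo purine synthesis had 10 of 20 higher, 4 lower and 6 not called (median 0.16, vehicle 0.06, subtracted -0.0033).

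Downstream uses of uridine showed no common change. Of 22 genes of UDP-sugar and hexosamine synthesis, 9 rose, 8 fell and 5 did not pass the test (median -0.00034, vehicle 0.14, subtracted 0.04). Ugp2, which makes UDP-glucose, was not called (49.6 ± 1.39 and 51 ± 1.49 CPM, adjusted p = 0.56), Gfpt1, the entry enzyme of the hexosamine pathway, rose by 0.32 and Gne, the entry enzyme of sialic acid synthesis, fell by 0.85 on the log2 scale. Of 18 ectonucleotidases and purinergic receptors, 10 rose, 6 fell and 2 did not pass the test (median 0.81, vehicle 1.04, subtracted 0.93). P2ry14, the receptor of UDP-glucose on progenitors, rose from 5.39, 7.65 and 7.03 CPM to 23.7, 22.4 and 19.7 CPM (log2 fold change 1.72, SE 0.12, adjusted p = 6.3e-15), with 34.7 CPM under vehicle. The ADP receptor gene P2ry1 rose from 3.31 ± 0.778 to 13.4 ± 0.151 CPM, Entpd1, which encodes CD39, fell from 73.7 ± 2.1 to 15.1 ± 1.94 CPM and P2ry10 from 81.7 ± 2.12 to 6.88 ± 0.618 CPM.

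Of 19 adhesion and homing genes, 10 rose, 7 fell and 2 did not pass the test (median 0.27, vehicle 0.23, subtracted 0.29). The laminin receptor subunit Itga6 rose from 66.4, 65.1 and 69.5 CPM to 198, 196 and 201 CPM (log2 fold change 1.57, SE 0.04, adjusted p = 2.6e-29), and the fibronectin receptor subunits Itga4 and Itga5 rose by 0.76 and 1.004. S1pr1, the receptor that guides exit into blood and lymph, fell from 92.5, 88.6 and 93.2 CPM to 10.1, 10.3 and 11.1 CPM (log2 fold change -3.12, SE 0.08, adjusted p = 3.5e-29). Beyond the lists, the 20 largest falls included Gnb3, a G protein subunit, from 18.4, 18.4 and 17.5 CPM to 0.246, 0.102 and 0 CPM, Il9r, the interleukin 9 receptor, from 31, 37.6 and 31.5 CPM to 0.443, 0.307 and 0.249 CPM, Bmp6, a bone morphogenetic protein, from 12.6 ± 0.64 to 0.249 ± 0.128 CPM, and Prlr, the prolactin receptor, from 12.3 ± 1.3 to 0.283 ± 0.187 CPM. Among the 20 largest rises outside the lists, Serpinb2, plasminogen activator inhibitor 2, stood at 0.2, 0.209 and 0 CPM and 51.8, 45.7 and 48.6 CPM, and Lox, lysyl oxidase, at 0.533, 0 and 0.482 CPM and 28.6, 30.3 and 31.6 CPM. In vehicle cultures Gnb3, Il9r, Serpinb2 and Lox were at 0.0175, 0.322, 69 and 54 CPM.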

How the data were processed

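The deposited table holds raw counts per Ensembl gene made by the authors from paired 150 bp reads. RNA was extracted with Trizol and captured on poly-T beads, per the labels' protocols. HISAT2 2.0.5 and the mm10 build are named per the submitters' processing notes. The counting program, annotation and strand setting are not given in the sources used. Overlapping genes and near copies are therefore uncertain. Gene symbols came from GENCODE, which matched 54495 of 54532 IDs. The common biological coefficient of variation, which is the spread between libraries of a group beyond counting error, was 0.0438.

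From the counts, edgeR 4.0.16 (R 4.3.3) kept 16675 genes with filterByExpr, scaled with TMM and tested uridine culture against uncultured aged cells with the quasi-likelihood test on all 12 libraries in 4 groups, with Benjamini-Hochberg adjustment and a threshold of 0.05. The fit was tested on simulated data with known changes. Alternatives were DESeq2 1.42.0, limma 3.58.1, other scalings and filters, each library left out, a replicate block and the subtraction of the young-like fraction. In that subtraction, counts below 0 were set to 0.

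The members, the 57 lists and the subtraction were chosen with earlier results of these data known. Lists are described by counts and medians, without a set test. Of 1244 listed names, 1205 were tested. Named genes were protein-coding: the 20 largest rises and falls in log2 fold change with at least 5 CPM and no overlap, the 15 largest in CPM, and per list the 5 most abundant, up to 5 with the largest change and those not called. Every member was eligible for the lists of stem cell identity, stem cell ageing, uridine, pyrimidines and kinase inhibitors. Promoter windows came from RefSeq on GRCm38.p6. Intervals and floors cover counting error only. Some genes of these lists are not reported here.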

Additional observations from a re-analysis of the deposited data

How the results depend on the processing

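The 4 counts of changed genes stayed within 1.5 times their main values under every alternative run: 5180 to 6281 higher, 4614 to 5856 lower, 1434 to 2288 higher by 2-fold or more and 1564 to 2734 lower by 2-fold or more. Leaving out 1 library at a time gave 5755 to 5874 higher, 5137 to 5229 lower, 1963 to 2073 and 2199 to 2264. In the 6 libraries alone the counts were 5352, 5481, 1702 and 2211, and with the replicate block 5306, 5392, 1682 and 2161. The block is not read as a pairing: deviations of same-numbered libraries correlated at 0.0428, 0.0239 and 0.0519, none over 0.1. Of the 303 genes named in the text, 275 were called. Among those 275, 17 changed sign after the young-like fraction was subtracted, and 2 kept their sign but were no longer called. Another 12 named genes, not called in the main fit, were called after subtraction. Changes of sign were not counted among genes not called in the main fit.

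Those 17 subtracted log2 fold changes were -0.0588 for Atp5b, -6.98 for Col1a1, -8.36 for Col1a2, -2.49 for Dntt, -1.34 for Ear1, -2.93 for Ear2, -1.21 for Ear6, 0.0622 for H2-K1, -2.32 for Igll1, -1.01 for Ltf, -1.004 for Ngp, -2.07 for Rag1, -0.20 for S100a8, -0.36 for S100a9, -0.98 for Slc4a1, -8.34 for Sparc and -0.83 for Vpreb1. The values for Col1a1, Col1a2 and Sparc rest on counts at or near 0 and are no measure of size. Atp5b was also -0.00692 with upper quartile factors.

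List medians that changed sign after subtraction were -0.12 for B cell precursors, -0.33 for dendritic cells, -0.28 for late granule genes, -1.03 for eosinophils, -1.96 for erythroid cells, -1.42 for stroma, 0.037 for kinase inhibitors, 0.19 for NF-kB, 0.17 for MHC class I, -0.00325 for purine synthesis and 0.039 for UDP-sugars. The other sign changes were in lists with medians near 0. Stem cell identity was -0.0175 in the 6 libraries, -0.0187 with DESeq2's test and with its size factors, -0.019 with the block, -0.00184 among protein-coding genes and -0.0412 with upper quartile factors. Cytokine feedback was -0.00889 in the 6 libraries, -0.0103 with DESeq2's test, -0.0102 with its size factors, -0.00983 with the block and -0.0323 with upper quartile factors. Lymphoid-primed genes were 0.098 without immunoglobulin genes, 0.0904 among protein-coding genes and 0.00563 without a filter. Without a filter, NF-kB was 0.0101, uridine handling 0.00682 and UDP-sugars 0.0201. Hox genes were -0.0219 with upper quartile factors. With 1 library left out, the medians ran from -0.0641 to 0.0697 for stem cell identity, -0.0476 to 0.101 for cytokine feedback, -0.0294 to 0.0049 for lymphoid-primed genes, -0.0279 to 0.0128 for NF-kB, -0.126 to 0.0356 for uridine handling, -0.0159 to 0.0357 for UDP-sugars and -0.0143 to 0.0679 for Hox genes. The cause of these shifts was not tested.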
